A study of Mus musculus with 4 samples.

Results

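The endfoot of an astrocyte is the flattened process with which it wraps a blood vessel or the brain surface, and 8 genes that encode parts of its water and potassium machinery are described here: Aqp4, Kcnj10, Kcnj16, Mlc1, Hepacam, Clcn2, Dag1 and Dtna. They were chosen by name, all 8 were present among the 55471 genes of the deposited tables, and all 8 passed the filter on low counts. RNA bound to tagged ribosomes of mouse brain was sequenced from 2 libraries labelled cuprizone and 2 labelled mock. Cuprizone is a copper chelator that kills oligodendrocytes and strips myelin from white matter when it is mixed into chow. Per the labels, every library, mock included, came from animals of the genotype GFAP-Cre+/- Rpl22HA/wt, was of batch 1 and was taken at 3 weeks. The series' own design description speaks of males 8 to 9 weeks old, chow with 0.2% cuprizone by weight or normal chow, and micro-dissected corpus callosum, but gives collection at 5, 5.5 and 7 weeks. The time is therefore given as the sample labels have it. In this model, Cre recombinase under a GFAP promoter switches on an HA tag on 1 allele of the ribosomal protein Rpl22, so that an antibody collects ribosomes of any cell in which Cre has been active. Several GFAP-Cre lines are also active in neural progenitors, and the labels do not name the line.

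Aquaporin-4, encoded by Aqp4, is the main water channel of the brain and is concentrated in endfeet. It is anchored there by the dystrophin complex, in which dystroglycan spans the membrane and binds laminin outside the cell, while dystrobrevin binds inside it. The potassium channel subunits Kir4.1 (Kcnj10) and Kir5.1 (Kcnj16) assemble together and take up potassium released by active neurons. MLC1 and its partner GlialCAM (Hepacam) form a complex at contacts between astrocytes, GlialCAM also binds the chloride channel ClC-2 (Clcn2), and mutations of MLC1 or of GlialCAM cause a human leukodystrophy with swollen white matter.

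The libraries held 21834814 and 23822620 counts in the cuprizone group, against 22109536 and 21209517 in the mock group. All 14 astrocyte markers were detected in every library and summed to 6625 and 7300 CPM (counts scaled to the library total) in cuprizone, against 10936 and 10430 CPM in mock libraries. The 10 neuron markers summed to more, 15842 and 15557 CPM in cuprizone against 13687 and 14159 CPM in mock libraries. Of that sum Snap25 alone held 9900 and 10008 CPM in cuprizone and 8292 and 8297 CPM in mock libraries. Rbfox3, Stmn2, Gad1 and Camk2a were also higher in both cuprizone libraries, Syt1, Thy1 and Slc17a7 were lower, and Nefl and Gad2 overlapped. The 9 oligodendrocyte markers summed to 10365 and 13442 CPM in cuprizone against 13043 and 15107 CPM in mock libraries. Cuprizone replicate 2 stood apart in 6 markers of cerebellar granule neurons, which summed to 131 CPM in cuprizone replicate 1 and 1166 CPM in cuprizone replicate 2, against 45.6 and 34.2 CPM in mock libraries, where Cbln3 and Gabra6 were at 0. Cuprizone replicate 1 also held 489 counts of Cbln3 and 257 counts of Gabra6, so leaving out replicate 2 does not remove these transcripts, which are not expected from the corpus callosum that the design description names. Their part in the results was not tested. Each fold of the 8 genes is also given without cuprizone replicate 2, and the other folds and ratios where that library or another moved them. Gfap stood at 385 and 451 CPM in cuprizone libraries and at 963 and 870 CPM in mock libraries. Rpl22, the tagged gene, stood at 42.2 and 27.5 CPM in cuprizone libraries and at 40.6 and 40.1 CPM in mock libraries.

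Kcnj16, Mlc1 and Kcnj10 stood at about 0.4 times their mock level in cuprizone libraries, Dag1 and Hepacam lay between 0.6 and 0.7 times, and Aqp4, Dtna and Clcn2 had groups that overlapped. None of the 8 passed the edgeR quasi-likelihood test after adjustment over all 15816 tested genes, of which 0.0822% were called. At an unadjusted edgeR p under 0.05, 5 of the 8 were lower in cuprizone (Kcnj10, Kcnj16, Mlc1, Hepacam and Dag1), where 7.04% of all tested genes were. DESeq2 called 3 of the 8 lower (Kcnj10, Kcnj16 and Mlc1), against 2.85% of all tested genes, and limma-voom called 0 of the 8 and 0.24% of all tested genes lower. In the same 5 genes each cuprizone library lay below each mock library, a pattern held by 18.9% of tested genes, while 25.7% of tested genes lay above without overlap and none of the 8 did. The median log2 fold of the 8 was -0.69, and that of all tested genes 0.0006. Leaving out 1 library moved the median of the 8 to between -1.02 (cuprizone replicate 2 left out) and -0.43 (cuprizone replicate 1 left out). Some of the 8, Kcnj10 and Dag1 among them, are known to be expressed outside astrocytes too, Kcnj10 in oligodendrocytes among other cells. Lower in the cuprizone libraries as well, 4 markers of oligodendrocyte precursors summed to 47.4 and 68.6 CPM in cuprizone against 115 and 128 CPM in mock libraries. The 10 microglia markers summed to 20.1 and 19.0 CPM in cuprizone against 37.2 and 52.9 CPM in mock libraries, with Cx3cr1 and Aif1 at 0 in both cuprizone libraries, and their part in the result was not tested. In these bulk pull-downs fewer cells of a type and less RNA per cell cannot be told apart.

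**Figure D1:**
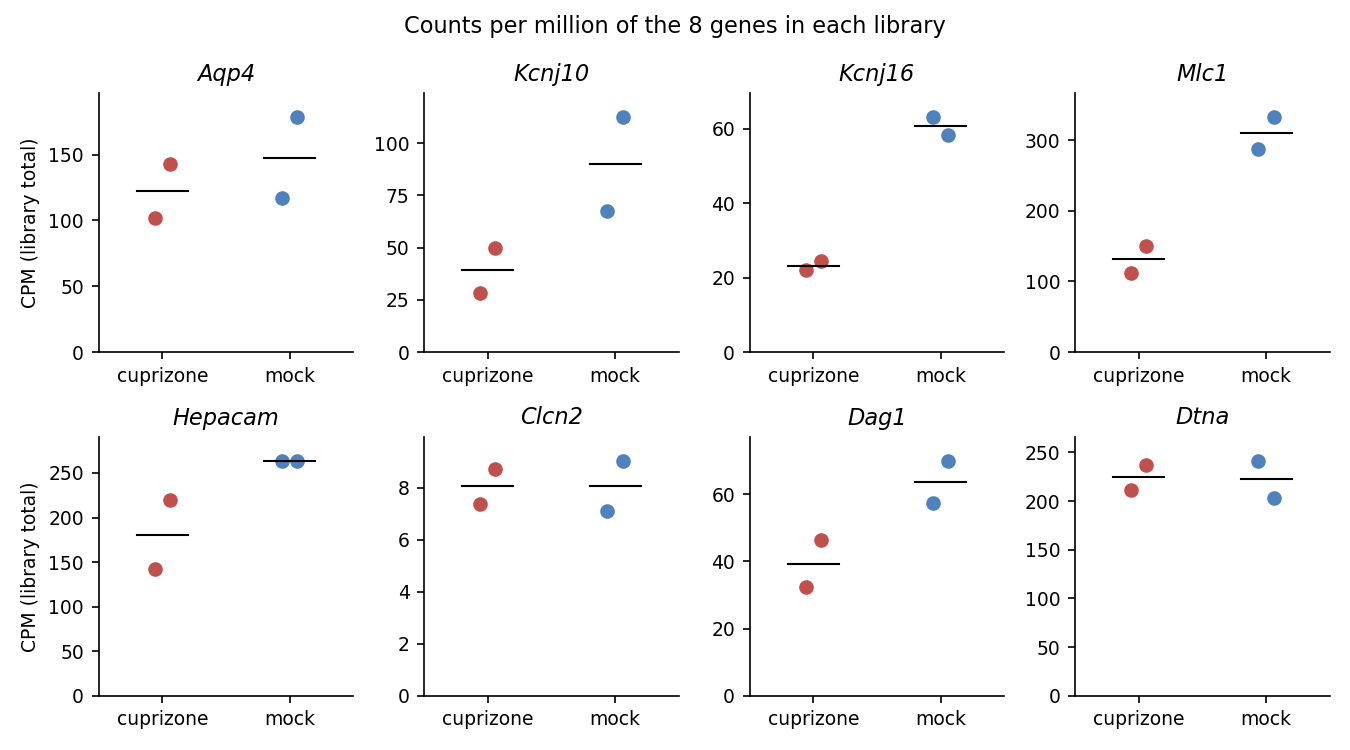
CPM (linear axes from 0) of each of the 8 genes in the cuprizone (left, red) and mock (right, blue) libraries; points are libraries and bars are group means (n = 2 each). Kcnj10, Kcnj16, Mlc1, Hepacam and Dag1 are lower in both cuprizone libraries, and the groups overlap in Aqp4, Clcn2 and Dtna.

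Aqp4 (ENSMUSG00000024411) lies on chromosome 18 at 15389496 to 15410982 of GRCm38, on the minus strand. It had 102 and 143 CPM in cuprizone libraries, against 117 and 179 CPM in mock libraries. In both groups replicate 2 was the higher library, and cuprizone replicate 2 lay above mock replicate 1. The log2 fold was -0.34 (SE 0.27), with a 95% interval from -0.997 to 0.316 and an edgeR adjusted p of 0.694. Leaving out cuprizone replicate 2 gave -0.62, and leaving out mock replicate 2 gave 0.02, so its direction depended on that mock library. By the likeness of the centred log2 CPM over the 4 libraries, the nearest of 10986 other tested genes with a mean of at least 5 CPM were Grm7, Gkap1 and Man2b1, at root mean square differences of 0.029, 0.034 and 0.036.

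Kcnj10 (ENSMUSG00000044708), the pore-forming Kir4.1 that sets the resting potential of astrocytes, lies on chromosome 1 at 172341210 to 172374085 on the plus strand. It had 28.5 and 49.6 CPM in cuprizone libraries and 67.5 and 112 CPM in mock libraries. The groups did not overlap, but replicate 2 was 1.74 times replicate 1 in the cuprizone group and 1.67 times in the mock group. The log2 fold was -1.27 (SE 0.36, 95% interval -2.15 to -0.39), with an edgeR adjusted p of 0.254 and a DESeq2 adjusted p of 0.00689. Leaving out cuprizone replicate 2 moved it to -1.74, and leaving out mock replicate 2 moved it to -0.83. The nearest patterns to it included those of Bcan and Plcxd1, at root mean square differences of 0.084 and 0.103.

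Kcnj16 (ENSMUSG00000051497), the Kir5.1 subunit that makes the joint channel sensitive to pH, lies on chromosome 11 at 110968033 to 111027968 on the plus strand. It had 22.0 and 24.3 CPM in cuprizone libraries, against 63.1 and 58.2 CPM in mock libraries. The cuprizone libraries were 1.11-fold apart and the mock libraries 1.08-fold, and the groups were far from overlapping. Its log2 fold was -1.46 (SE 0.23, 95% interval -2.003 to -0.911). The edgeR adjusted p was 0.12, the limma-voom adjusted p 0.064 and the DESeq2 adjusted p 5.69e-05. With 1 library left out the log2 fold ran from -1.54 (without cuprizone replicate 2) to -1.38, the narrowest such range among the 8 genes.

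Windows were taken from RefSeq's promoter table (GRCm38.p6) for 6 of the 8 genes. Aqp4 and Dtna were left out, so their windows were not examined. The 250 bases before the first annotated start of Kcnj10 (chr1:172340960-172341209, plus strand) and of Kcnj16 (chr11:110967783-110968032, plus strand) are shown because their proteins share 1 channel and both genes were lower. The counts do not say which of the 4 RefSeq starts of Kcnj16 was used. Capitals mark matches, on either strand, to 1 of 6 motifs named after the sequences.
Kcnj10: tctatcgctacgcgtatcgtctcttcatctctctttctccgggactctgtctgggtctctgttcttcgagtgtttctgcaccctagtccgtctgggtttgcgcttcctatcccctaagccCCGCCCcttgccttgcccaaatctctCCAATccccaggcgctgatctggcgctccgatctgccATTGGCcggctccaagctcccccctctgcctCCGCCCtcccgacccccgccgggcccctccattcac
Kcnj16: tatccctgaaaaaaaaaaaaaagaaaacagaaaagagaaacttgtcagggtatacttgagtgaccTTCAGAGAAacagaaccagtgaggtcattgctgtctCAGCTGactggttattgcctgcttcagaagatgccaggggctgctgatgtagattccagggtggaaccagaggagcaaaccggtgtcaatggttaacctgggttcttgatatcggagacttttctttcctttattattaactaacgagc
The windows differed in base composition: that of Kcnj10 was 62.0% G and C with 17 CpG dinucleotides, and that of Kcnj16 42.8% with 3, beside medians of 52.4% and 6 over 32851 RefSeq promoter windows of that length. The Kcnj10 window held 2 GC boxes, 2 CCAAT boxes and 1 NFI motif, which overlaps the CCAAT box nearer to the start. The Kcnj16 window held 1 STAT site and 1 E box. A GC box is GGGCGG here, and 32.7% of all the windows held one on either strand. A CCAAT box, spelled by its name, was in 33.8% of them. The NFI motif is TTGGC, which 41.5% of the windows held. The STAT site is TTCNNNGAA, which 7.02% held. An E box is CANNTG, which 66.2% held. The TATA box is TATAAA, which 12.4% held. No motif was found in both of these windows. Other starts of Kcnj16, numbered along the strand, had windows with motifs that the Kcnj10 window also held. The window of start 2 held 1 NFI motif, and that of start 4 held 1 CCAAT box, 1 GC box and 2 NFI motifs. The window of start 3 held 1 TATA box.

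Mlc1 (ENSMUSG00000035805), a membrane protein found in brain mainly in astrocytes, lies on chromosome 15 at 88955884 to 88979007 on the minus strand. It had 112 and 150.2 CPM in cuprizone libraries and 287 and 333 CPM in mock libraries. The 4 libraries fell into their groups with a wide gap, and the log2 fold was -1.31 (SE 0.20, 95% interval -1.79 to -0.82). The edgeR adjusted p was 0.119, the limma-voom adjusted p 0.0508 and the DESeq2 adjusted p 8.09e-08. Without cuprizone replicate 2 the log2 fold was -1.54 and edgeR called it, at an adjusted p of 0.0467; over all alternatives the adjusted p ran from 8.09e-08 to 0.368.

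Hepacam (ENSMUSG00000046240), the adhesion protein GlialCAM that carries MLC1 and ClC-2 to cell contacts, lies on chromosome 9 at 37367351 to 37386575 on the plus strand. It had 142 and 219 CPM in cuprizone libraries, against 264 and 264 CPM in mock libraries. The mock libraries were nearly equal and the cuprizone libraries were 1.54-fold apart. Its log2 fold was -0.61 (SE 0.23, 95% interval -1.17 to -0.06), with an edgeR adjusted p of 0.348. Leaving out cuprizone replicate 1 gave -0.33, and leaving out cuprizone replicate 2 gave -0.97.

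Clcn2 (ENSMUSG00000022843), which encodes ClC-2, lies on chromosome 16 at 20702964 to 20717746 on the minus strand and shares exonic bases with Fam131a and Polr2h on the other strand, so that some of its counts may belong to them if the counting ignored strand. It rested on few counts, 161 and 208 in cuprizone and 157 and 192 in mock libraries. These were 7.37 and 8.73 CPM in cuprizone libraries and 7.10 and 9.05 CPM in mock libraries, with the mock libraries lying outside the cuprizone ones on both sides. The log2 fold was -0.07 (SE 0.43), and its 95% interval from -1.11 to 0.96 holds changes as large as that of Hepacam in either direction. The edgeR adjusted p was 0.979, and the log2 fold was -0.21 without cuprizone replicate 2.

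Dag1 (ENSMUSG00000039952), the dystroglycan precursor, lies on chromosome 9 at 108204634 to 108263958 on the minus strand. It had 32.3 and 46.4 CPM in cuprizone libraries, against 57.5 and 70.1 CPM in mock libraries, with no overlap. The log2 fold was -0.77 (SE 0.26, 95% interval -1.40 to -0.13), with an edgeR adjusted p of 0.313, and it was -1.06 without cuprizone replicate 2. Dtna (ENSMUSG00000024302), alpha-dystrobrevin of the inner face of the complex, lies on chromosome 18 at 23415135 to 23659715 on the plus strand. It had 211 and 237 CPM in cuprizone libraries and 242 and 204 CPM in mock libraries, so that both cuprizone libraries lay between the mock ones. The log2 fold of Dtna was -0.06 (SE 0.17, 95% interval -0.46 to 0.35), the narrowest interval of the 8 genes, with an edgeR adjusted p of 0.955 and a log2 fold of -0.16 without cuprizone replicate 2.

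**Figure D2:**
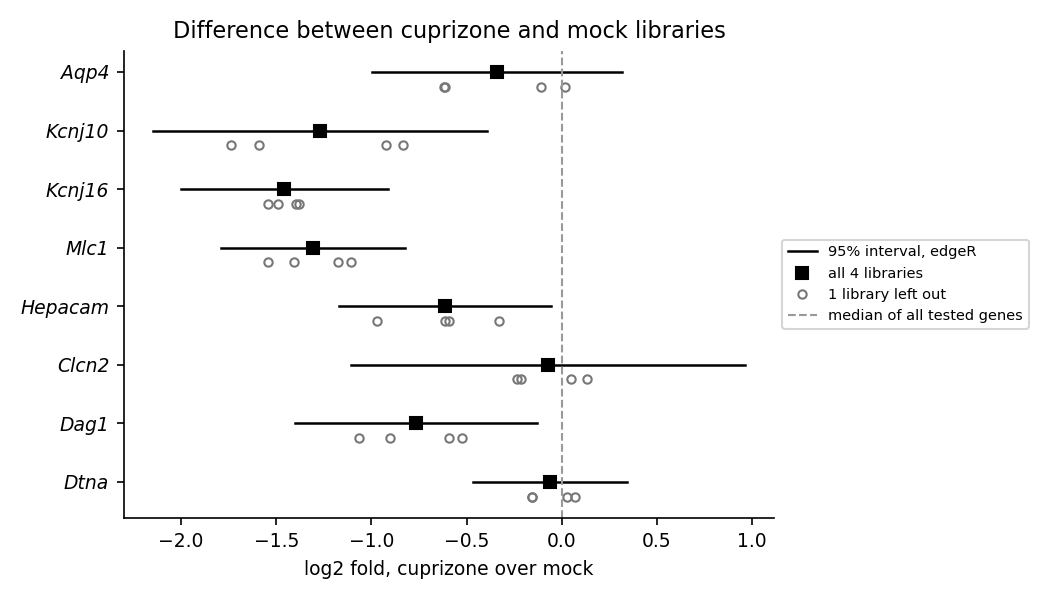
Log2 fold (cuprizone over mock) of each of the 8 genes from the edgeR fit (squares) with its 95% interval (lines), and the folds with 1 library left out (open circles); the dashed line is the median of all tested genes. Kcnj10, Kcnj16 and Mlc1 lie near -1.3 to -1.5, and the intervals of Aqp4, Clcn2 and Dtna hold 0.

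Per kilobase of exon, the levels of the 8 genes spanned a wide range in both groups. In cuprizone libraries Hepacam averaged 54.0 CPM per kb ± 16.3 and Mlc1 46.9 ± 9.54, followed by Aqp4 at 19.6 ± 4.71, Dtna at 13.2 ± 1.09, Kcnj10 at 7.22 ± 2.75, Dag1 at 6.19 ± 1.57, Kcnj16 at 5.89 ± 0.416 and Clcn2 at 1.34 ± 0.159 (SD, n = 2 each). In mock libraries Mlc1 averaged 111 CPM per kb ± 11.4 and Hepacam 78.9 ± 0.0238, followed by Aqp4 at 23.7 ± 6.98, Kcnj10 at 16.6 ± 5.88, Kcnj16 at 15.4 ± 0.882, Dtna at 13.1 ± 1.59, Dag1 at 10.0358 ± 1.39 and Clcn2 at 1.34 ± 0.229 (SD, n = 2 each). In cuprizone libraries the neighbours Hepacam and Mlc1 overlapped, as did Kcnj10 with Dag1 and Dag1 with Kcnj16. In mock libraries Aqp4 overlapped with Kcnj10, and Kcnj10 with Kcnj16. Hepacam stood above Mlc1 in both cuprizone libraries, at 42.5 against 40.1 and 65.5 against 53.6 CPM per kb. Mlc1 stood above Hepacam in both mock libraries. Kcnj10 over Dag1 in the cuprizone group and Aqp4 over Kcnj10 in the mock group also kept the order of their means within each library. The order was reversed in cuprizone replicate 1 for Kcnj16 and Dag1, at 5.60 against 5.08 CPM per kb. It was also reversed in mock replicate 1 for Kcnj16 and Kcnj10, at 16.0 against 12.5 CPM per kb. The lengths are of all annotated exons merged, which came to 16930 bases for Dtna and 2801 bases for Mlc1, so the scale depends on how many exons are annotated.

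Ratios of counts within a library do not depend on scaling and show how partners moved against each other. Aqp4 stood at 3.56 and 2.89 counts per count of Kcnj10 in cuprizone libraries, against 1.73 and 1.59 in mock libraries, a difference of 0.95 on the log2 scale. Mlc1 stood at 0.79 and 0.685 counts per count of Hepacam in cuprizone libraries and at 1.09 and 1.26 in mock libraries, a log2 difference of -0.67. Neither ratio overlapped between the groups. In both cuprizone libraries the RNA of Aqp4 thus lay higher against that of Kcnj10, and the RNA of Mlc1 lower against that of Hepacam. Aqp4 itself was not higher in the cuprizone group, with a log2 fold of -0.34 and overlapping groups. Kcnj16 against Kcnj10 overlapped, with 0.772 and 0.491 in cuprizone and 0.936 and 0.518 in mock libraries (log2 difference -0.18), and in both groups replicate 2 was the lower. With 1 library left out this difference ran from -0.60 to 0.25 and turned positive without cuprizone replicate 2 (0.15) or mock replicate 1 (0.25). Within the dystrophin complex, Dtna stood at 6.54 and 5.11 counts per count of Dag1 in cuprizone libraries, against 4.20 and 2.91 in mock libraries, a log2 difference of 0.73. The ratio of Aqp4 to Dag1 was 3.14 and 3.08 in cuprizone and 2.03 and 2.55 in mock libraries (log2 difference 0.45), and that of Clcn2 to Hepacam 0.052 and 0.0399 against 0.027 and 0.0344 (0.58). With 1 library left out the other partner ratios kept their direction: Aqp4 over Kcnj10 ran from 0.799 to 1.101, Mlc1 over Hepacam from -0.78 to -0.56, Dtna over Dag1 from 0.46 to 0.99, Aqp4 over Dag1 from 0.29 to 0.61 and Clcn2 over Hepacam from 0.39 to 0.77. The share of all gene pairs whose ratio does not overlap between the groups was not computed. The denominators Kcnj10, Hepacam and Dag1 were each lower in both cuprizone libraries. With 2 libraries a group the exact 2-sided permutation test cannot go below p = 0.333, which all ratios without overlap reached. Adjusted over the 14 ratios computed, that p was 0.518, so no difference between partners passed.

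**Figure D3:**
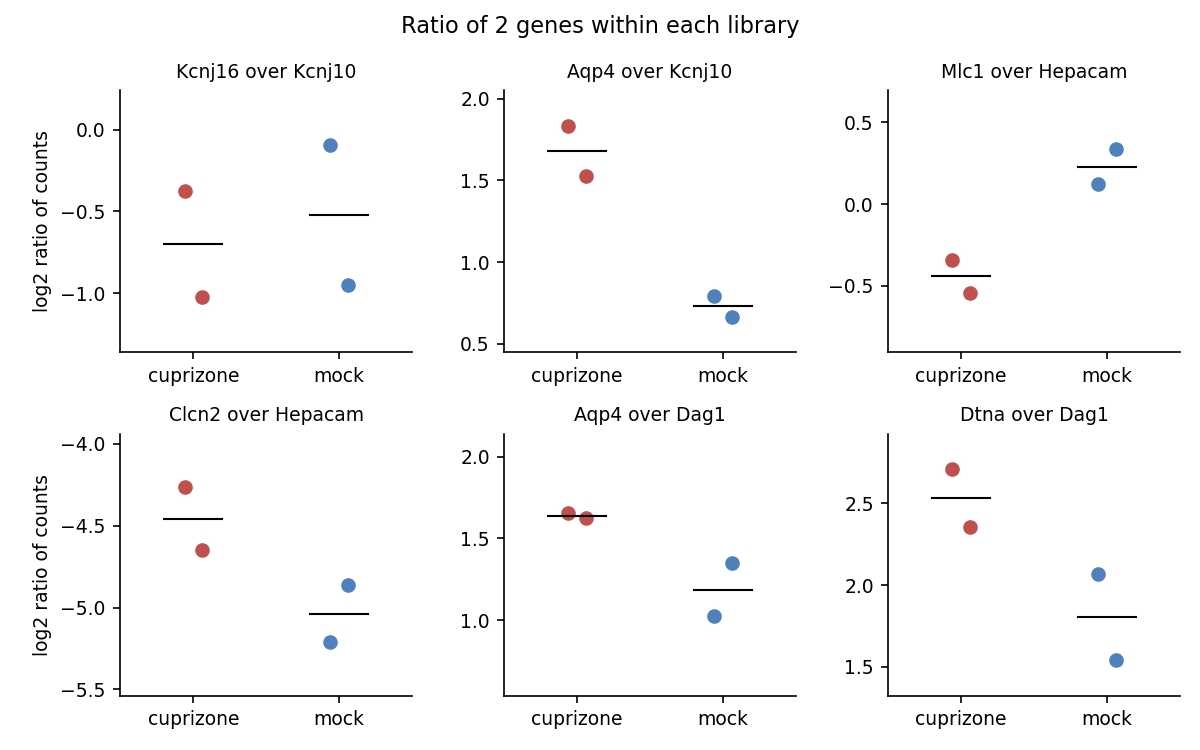
Log2 ratio of the counts of 2 genes within each cuprizone (left, red) and mock (right, blue) library; bars are group means, and each panel spans the same number of log2 units. Kcnj16 over Kcnj10 overlaps between the groups, and the other panels do not.

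The astrocyte markers as a list were also lower in cuprizone libraries, so each gene was set against their sum. No member is among these 14 markers, and after adjustment edgeR called 0 of them. Lower in cuprizone with an unadjusted edgeR p under 0.05 were 8 of the 14, against 7.04% of all tested genes. DESeq2 called 7 lower and limma-voom 2, against 2.85% and 0.24% of all tested genes. The list was mixed: 12 markers had negative log2 folds, while Sox9 (0.156) and Slc4a4 (0.049) had positive ones. The groups overlapped in Sox9, Slc4a4, Aldh1l1, Slc7a10 and Acsbg1. The median log2 fold of the 14 was -0.57, and Aldoc, a glycolytic enzyme, made up 37.5% to 44.7% of the sum. Against the sum, Kcnj16 was lower in both cuprizone libraries, with a log2 difference of -0.77, and so was Mlc1, with one of -0.63. Lower values without overlap were found in 4.64% of tested genes on this scale. Dtna and Clcn2 were higher against the sum, by 0.63 and 0.62, as were 60.9% of tested genes. Kcnj10 (-0.59), Dag1 (-0.09), Hepacam (0.04) and Aqp4 (0.36) overlapped between the groups. With 1 library left out, the log2 difference against the sum ran from -0.79 to -0.74 for Kcnj16, from -0.77 to -0.49 for Mlc1, from 0.54 to 0.72 for Dtna and from 0.41 to 0.83 for Clcn2. It ran from -0.99 (mock replicate 1 left out) to -0.19 (mock replicate 2 left out) for Kcnj10, from 0.018 to 0.696 with the same libraries for Aqp4, and changed sign for Dag1 (-0.29 to 0.10) and Hepacam (-0.20 to 0.28) with cuprizone replicate 2 and cuprizone replicate 1 left out. The exact permutation p was at its minimum of 0.333 for the 4 genes without overlap and 0.667 or more for the rest, with 2 libraries a group.

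**Figure D4:**
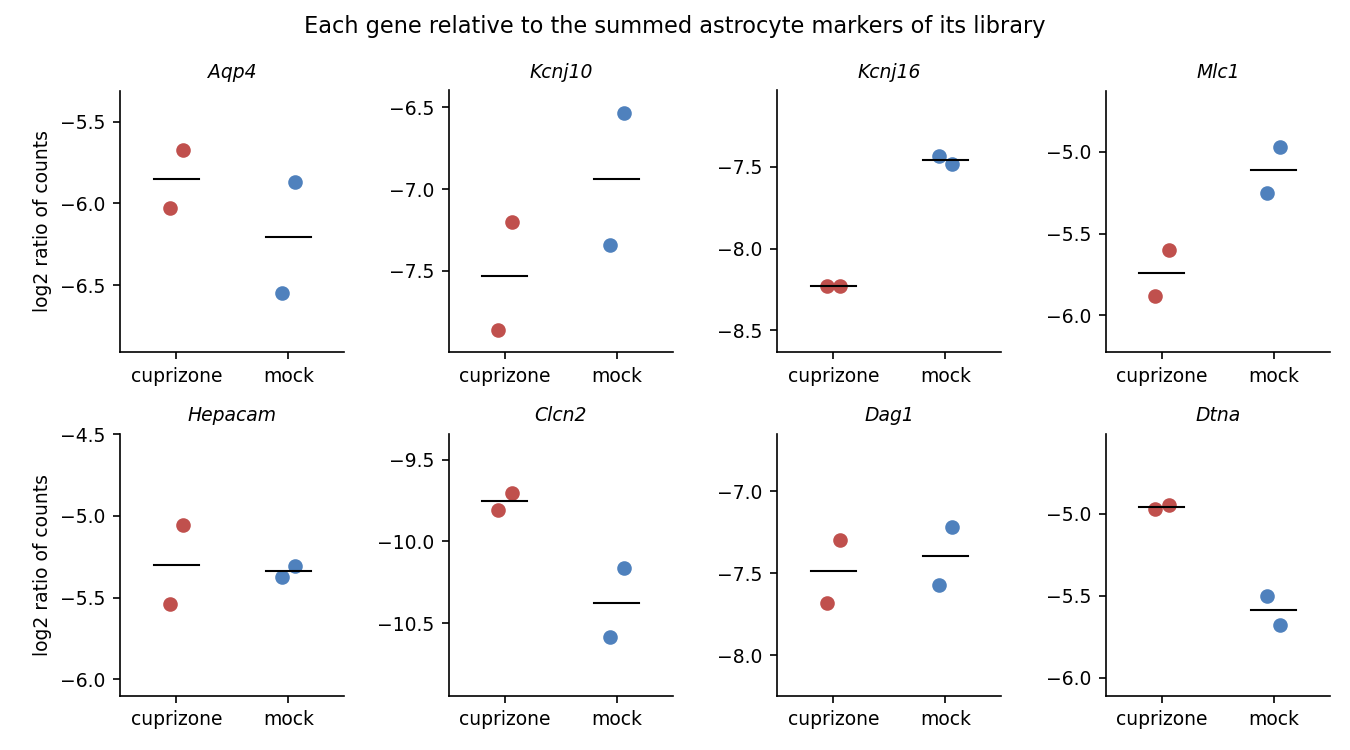
Log2 ratio of each gene's counts to the summed counts of 14 astrocyte markers in the cuprizone (left, red) and mock (right, blue) libraries; bars are group means, and each panel spans the same number of log2 units. Kcnj16 and Mlc1 lie lower, and Dtna and Clcn2 higher, in both cuprizone libraries.

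Genes that work beside the 8 were taken from 6 further lists, of which 69 genes were tested. In these lists edgeR called 0 genes over all tested genes, limma-voom called 0 and DESeq2 called 6, all lower. DESeq2 called 2.85% of all tested genes lower. At an unadjusted edgeR p under 0.05, 7.04% of all tested genes were lower and 5.73% higher, and 7898 of the 15816 had negative folds. These shares are the background for the counts by list below. Among 18 tested genes of the dystrophin complex and its matrix ligands, 13 had negative folds with a median of -0.17, which was -0.41 without cuprizone replicate 2 and turned to 0.12 without mock replicate 2, and 2 were lower at an unadjusted edgeR p under 0.05. The most abundant of them, Sgcb, a sarcoglycan, had 62.2 and 44.8 CPM in cuprizone and 89.2 and 80.8 CPM in mock libraries, and its log2 fold was -0.74 (SE 0.23). Dmd, which encodes dystrophin, had 57.2 and 44.0 CPM in cuprizone and 40.8 and 38.8 CPM in mock libraries (log2 fold 0.27, SE 0.23, and 0.44 without cuprizone replicate 2). Of 12 tested genes that glycosylate dystroglycan, 9 had negative folds with a median of -0.51, which was -1.03 without cuprizone replicate 1 and -0.25 without cuprizone replicate 2, and at an unadjusted edgeR p under 0.05 there were 2 lower and 2 higher. Pomk, a kinase that acts on its sugar chain, had a log2 fold of -0.04 (SE 0.23), which was 0.07 without cuprizone replicate 2, and Pomgnt2, a transferase of the same chain, was called lower by DESeq2 alone (log2 fold -1.11, SE 0.28).

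Of 15 tested potassium channels, pumps and carriers, 13 had negative folds with a median of -0.51, in a range of -0.64 (mock replicate 1 left out) to -0.28 (cuprizone replicate 1 left out), and 5 were lower at an unadjusted edgeR p under 0.05. DESeq2 called 2 of them lower, among them Kcnj9, a channel subunit of neurons (log2 fold -0.73, SE 0.18). The most abundant gene of the list, the pump subunit Atp1b2, stood at a log2 fold of -0.01 (SE 0.24), which was -0.43 without cuprizone replicate 2 and 0.31 without cuprizone replicate 1. Of the 3 gap junction genes Gja1, connexin 43, had 379 and 495 CPM in cuprizone and 465 and 481 CPM in mock libraries (log2 fold -0.18, SE 0.17, in a range of -0.40 with cuprizone replicate 2 left out to 0.004 with cuprizone replicate 1 left out), and 0 of the 3 had an unadjusted edgeR p under 0.05. Of 13 tested genes of water and volume regulation 11 had negative folds, and 2 were lower at an unadjusted edgeR p under 0.05. The median of that list was -0.25, in a range of -0.49 (cuprizone replicate 2 left out) to -0.03 (mock replicate 2 left out). Ttyh1, the most abundant, had 138 and 120.1 CPM in cuprizone and 222 and 262 CPM in mock libraries, and its log2 fold was -0.97 (SE 0.17), with a DESeq2 call. Among 8 tested chloride channels, exchangers and related receptors 5 had negative folds and 3 positive ones, and 2 were lower at an unadjusted edgeR p under 0.05. The median of these 8 was -0.32, in a range of -0.59 (cuprizone replicate 2 left out) to -0.07 (mock replicate 2 left out). DESeq2 called 2 genes of this list, Clcn3 (log2 fold -0.81, SE 0.15) and Clcn4 (-0.63, SE 0.15), intracellular exchangers, lower. Gpr37l1, a receptor of astrocytes and the most abundant of that list, had a log2 fold of -0.41 (SE 0.21), in a range of -0.62 (cuprizone replicate 2 left out) to -0.15 (mock replicate 2 left out). Dmd and the genes called by DESeq2 were named with their values known, except where they were the most abundant of their list.

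**Figure D5:**
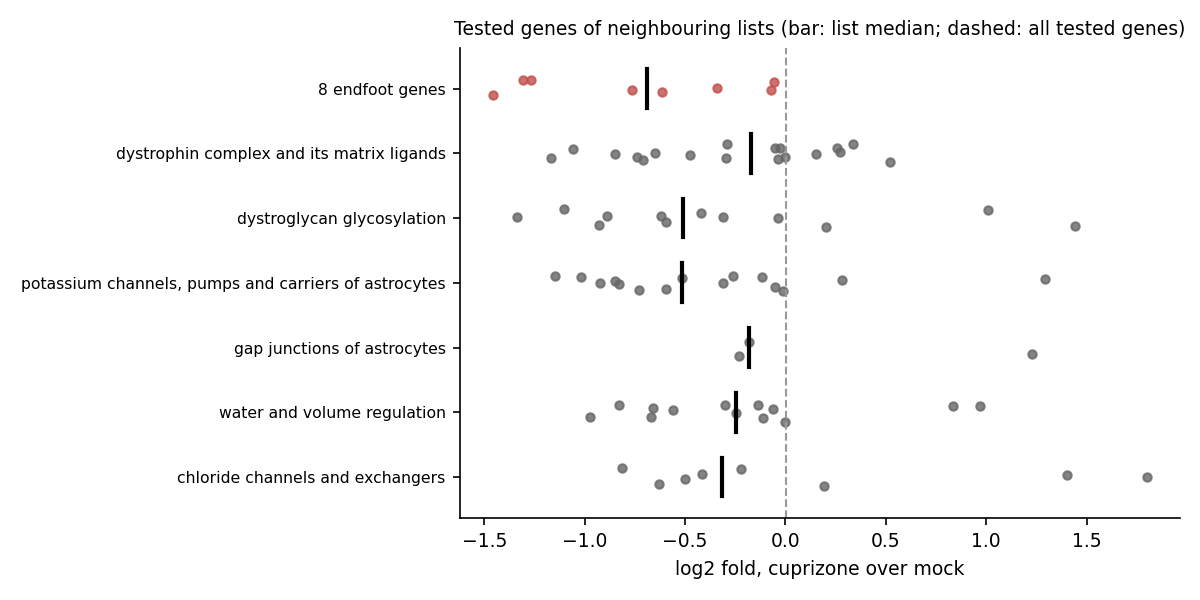
Log2 fold (cuprizone over mock) of every tested gene in the 8 endfoot genes (top, red) and 6 neighbouring lists (grey); black bars are list medians and the dashed line is the median of all tested genes. The 8 genes have a median of -0.69, and the other lists have medians between -0.51 and -0.17.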

How the data were processed

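The authors deposited 1 table of raw counts per library, not normalized. Per the submitters' processing notes, FastQC 0.11.9, STAR 2.5.4b and featureCounts 1.6.0 were used with GRCm38. The annotation release, strand setting and treatment of multi-mapping reads were not given in the sources used here. Per the labels' protocols, RNA with an integrity number above 8 entered a low-input library kit. Gene locations, types and merged exon lengths were taken from GENCODE M21 (GRCm38).

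CPM values use library totals, and 3 counts, the limit that a count of 0 allows, equal 0.126 to 0.141 CPM. The reads carry no molecular identifiers, so this covers counting error only. EdgeR 4.0.16 in R 4.3.3 (filterByExpr, TMM, glmQLFit with robust estimation and the default dispersions of that version, glmQLFTest, 2-sided) tested 15816 genes with Benjamini-Hochberg adjustment at 0.05. The SE is the log2 fold divided by the square root of F, and intervals use the fit's degrees of freedom. DESeq2 1.42.0 and limma-voom (limma 3.58.1) were alternatives, with other scalings, filters, dispersions, a replicate block and each library left out. Ratios used a pseudocount of 0.5 counts. The edgeR fit was also run on simulated counts with known folds. The only condition set there was on the size of the fitted folds, and mixed tissue content was not simulated.

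Replicates differed by more than sampling noise (chi-square per degree of freedom 56.5 in cuprizone, 35.1 in mock). The labels call them biological replicates without saying whether a library is 1 animal, so p-values measure the spread between libraries. The members and lists were chosen with earlier results of these data known. Genes named from a list were its called members or else its most abundant one, apart from those stated. For Aqp4 and Kcnj10 the 3 genes of nearest pattern were to be named. A few genes are not reported here.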

Additional observations from a re-analysis of the deposited data

How the results depend on the processing

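EdgeR called 13 genes over all tested genes and 0 of the 8 members. Without an expression filter it called 191 genes, 2 members (Kcnj16 and Mlc1) and 1 gene of the neighbouring lists (Ttyh1); at a mean CPM of at least 1 it called 68 genes and 1 member (Mlc1). DESeq2 called 715 genes, 3 members and 6 genes of the lists, limma-voom 47 genes and 0 members, and the bias-adjusted dispersions 51 genes and 0 members; the causes were not tested. With 1 library left out, where the lone library is assumed to vary like the other group, the calls ran from 5 genes (without either mock library) to 123 (without cuprizone replicate 1), and members called from 0 to 1 (Mlc1, without cuprizone replicate 2). Kcnj10, Kcnj16, Mlc1, Hepacam and Dag1 kept negative folds in all 13 alternatives. The log2 fold of Aqp4 ran from -0.62 to 0.019, that of Clcn2 from -0.24 to 0.14 and that of Dtna from -0.16 to 0.071 with 1 library left out, and Dtna stood at 0.01 with library-size scaling, which moved the median of all genes to 0.07. The replicate block called 10 genes and 0 members; replicate differences correlated at 0.002 between the groups over genes, so the numbers were not taken as pairs.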
